A study of Homo sapiens with 6 samples.

Results

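Lysozyme and 7 S100 proteins of myeloid cells were followed through RNA that had been pulled down with J2, a monoclonal antibody against double-stranded RNA. The 8 genes were LYZ, S100A8, S100A9, S100A12, S100A4, S100A6, S100A10 and S100A11, taken by symbol from the deposited gene table of 60675 identifiers and joined to the per-library counts by Ensembl identifier. The cells were OCI-AML2, a line from a human acute myeloid leukaemia, and every library came from cells transduced with a short hairpin RNA. In 3 libraries the hairpin was directed at PNPT1, the mitochondrial 3′ to 5′ exoribonuclease, and in 3 at SUPV3L1 (SUV3), its partner helicase; the submitters describe both sets as biological replicates. Control cells and RNA from before the pull-down were not analysed here, so a level below is a level in J2-bound RNA, and fewer cells making a transcript, less transcript per cell and less of it bound by J2 cannot be told apart. The replicates were numbered in accession order. Each library's title carries a number of its own whose meaning was not given in the sources used here. If the numbers name hairpins, the spread within a group also holds differences between hairpins. All results rest on 1 cell line.

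The 8 genes were selected on their counts and FPKM in these 6 libraries, in which their levels and group differences were already known. The levels and fold changes between the groups that follow therefore describe the choice, and no test is attached to them. Standard errors given beside the members' fold changes come from the same counts and are not read as a test.

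Lysozyme is the secreted muramidase with which monocytes, macrophages and granulocytes cut bacterial cell walls. S100 proteins are small calcium-binding proteins with a pair of EF-hands that mostly work as dimers. S100A8 and S100A9 form calprotectin, a heterodimer that fills the cytosol of neutrophils and monocytes and, once released, withholds zinc and manganese from microbes and acts on inflammatory receptors. S100A12 is a further alarmin of phagocytes. S100A4, S100A6, S100A10 and S100A11 are found in many cell types, where they bind myosin, annexins and other cytoskeletal or membrane partners. In myeloid differentiation the calprotectin and lysozyme genes are classic markers of maturing monocytes and granulocytes.

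By GENCODE 29 on GRCh38, LYZ (ENSG00000090382) lies at chr12:69348341-69354234 on the plus strand, and the S100 genes lie in the cluster on chromosome 1. Within that cluster S100A9 (ENSG00000163220, chr1:153357854-153361027, plus strand), S100A12 (ENSG00000163221, chr1:153373706-153375649, minus strand) and S100A8 (ENSG00000143546, chr1:153390032-153391188, minus strand) are neighbours. S100A6 (ENSG00000197956, chr1:153534599-153536244) and S100A4 (ENSG00000196154, chr1:153543613-153550136) form a second group, and S100A10 (ENSG00000197747, chr1:151982915-151994390) and S100A11 (ENSG00000163191, chr1:152032506-152047907) lie farther off. These 4 are on the minus strand. All 8 are annotated as protein-coding.

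The neighbours S100A8, S100A9 and S100A12 were all highest in SUPV3L1 knockdown replicate 1, though only S100A8 and S100A9 were also high in replicate 3. Their promoter sequences are shown, from 250 bases before to 50 after the start site (RefSeq, GRCh38.p14). They span chr1:153391024-153391323 (minus strand) for S100A8, for which the middle of 3 windows was taken, chr1:153357604-153357903 (plus strand) for S100A9 and chr1:153375572-153375871 (minus strand) for S100A12. Capitals mark matches to TATAAA (the TATA box core), GAGGAA (a PU.1 core) or TTNNGNAA (a C/EBP core), each searched on both strands.
S100A8: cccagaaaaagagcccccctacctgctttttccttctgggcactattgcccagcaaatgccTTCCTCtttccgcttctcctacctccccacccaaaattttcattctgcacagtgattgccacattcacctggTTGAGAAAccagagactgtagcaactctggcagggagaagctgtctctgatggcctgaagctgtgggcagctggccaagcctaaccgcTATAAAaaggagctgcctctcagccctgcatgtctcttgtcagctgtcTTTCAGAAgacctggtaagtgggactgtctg
S100A9: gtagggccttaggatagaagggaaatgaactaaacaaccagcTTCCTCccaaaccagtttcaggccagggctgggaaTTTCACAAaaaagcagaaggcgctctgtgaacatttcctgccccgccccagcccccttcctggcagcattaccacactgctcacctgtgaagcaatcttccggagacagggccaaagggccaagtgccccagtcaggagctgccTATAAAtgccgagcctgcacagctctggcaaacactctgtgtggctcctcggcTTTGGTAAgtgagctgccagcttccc
S100A12: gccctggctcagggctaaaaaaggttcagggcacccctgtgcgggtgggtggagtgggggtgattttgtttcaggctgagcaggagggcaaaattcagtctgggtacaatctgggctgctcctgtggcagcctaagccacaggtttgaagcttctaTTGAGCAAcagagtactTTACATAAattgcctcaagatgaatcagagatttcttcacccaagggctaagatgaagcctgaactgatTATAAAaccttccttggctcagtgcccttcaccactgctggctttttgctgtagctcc
With the start site as position 0, TATAAA began at position -29 in both S100A8 and S100A9 and at position -8 in S100A12. The PU.1 core stood on the opposite strand at position -189 in S100A8 and at position -208 in S100A9, and no match was found in the S100A12 window. C/EBP matches began at positions -117 and 19 in S100A8, at -173 and 24 in S100A9, and at -94 and -77 in S100A12. No matches overlapped in these windows. Of the 7 members with a promoter entry, all but LYZ, TATAAA was present in 4, GAGGAA in 2 and TTNNGNAA in 5. Over 35116 promoters of the same length, the shares were 11.5%, 27.9% and 36.8%. A match is a description of letters and not a bound site.

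Libraries held 5852090 to 11361371 counts assigned to genes, with the fewest counts and the fewest genes detected (16620) in PNPT1 knockdown replicate 3, whose TMM factor of 0.669 also set it apart. PNPT1 RNA and SUPV3L1 RNA each had the lower mean in its own knockdown, given first below in CPM (counts scaled to library size). PNPT1 was at 7.66 to 18.9 against 21.4 to 36.3 CPM. These groups did not overlap, like those of 4.62% of all genes tested in that direction. SUPV3L1 was at 9.42 to 12.3 against 11.5 to 25.8 CPM, where the groups overlapped. Without control cells, these levels do not give the extent of either knockdown. Of 6 markers of myeloid leukaemia cells, PTPRC (282 to 607 CPM), SPI1 (51.9 to 82.4 CPM) and CD33 (28.2 to 59.2 CPM) were present in every library, and HOXA9 was at 6.55 to 77.8 CPM. MPO was low, at 0.822 to 7.07 CPM, and ANPEP was absent or nearly so, with 0 to 8 counts. Of 15 markers of other cell types, 7 had no count in any library, T-cell CD3D and CD3E had at most 1 count, and only NKG7 and PECAM1, which is also made by monocytes, passed the expression filter. The 15 summed to 27.4 to 81.0 CPM in PNPT1 knockdown and to 36.9 to 110 CPM in SUPV3L1 knockdown, and their part in the results was not tested.

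Together the 8 transcripts took more of the assigned counts in each SUPV3L1 knockdown library than in any PNPT1 knockdown library, with a wide spread among the former. The PNPT1 knockdown libraries gave 0.0364% (95% Wilson interval 0.0351 to 0.0377), 0.0403% (0.0391 to 0.0415) and 0.0289% (0.0276 to 0.0303). The SUPV3L1 knockdown libraries gave 0.397% (0.394 to 0.401), 0.0538% (0.0524 to 0.0552) and 0.190% (0.187 to 0.192). Intervals cover counting error only. In SUPV3L1 knockdown replicate 2 the higher share rested on LYZ, which alone took 0.0365%. LYZ took 0.00441%, 0.0197% and 0.00960% in PNPT1 knockdown replicates 1, 2 and 3. The other members together took less in SUPV3L1 knockdown replicate 2 than in any PNPT1 knockdown library. SUPV3L1 knockdown replicate 1 was the highest library for 7 of the 8 genes, all but S100A10, where it is the highest for 11.8% of all 13275 genes tested. The members were chosen on these values, so the count of 7 describes the choice. SUPV3L1 knockdown replicate 2 was the lowest library for 5 of the 8: S100A8, S100A12, S100A4, S100A6 and S100A10. The share of all genes lowest in that library was not computed, so nothing is read from that count. The levels by gene and library are plotted in CPM after TMM scaling.

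**Figure D1:**
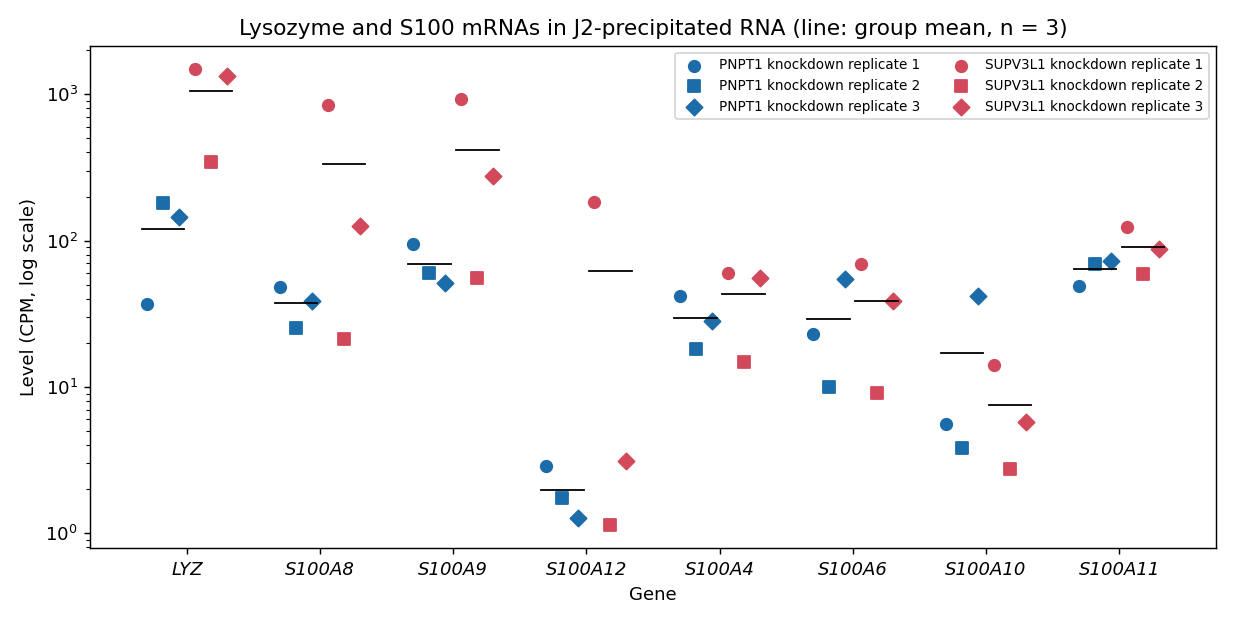
Level of each gene (CPM after TMM scaling, log scale) in each of the 3 PNPT1 knockdown libraries (blue) and the 3 SUPV3L1 knockdown libraries (red), with a line at the group mean. LYZ is the gene whose groups do not overlap, and S100A12 stands at 183 CPM in SUPV3L1 knockdown replicate 1 against 1.13 to 3.14 CPM in the other 5 libraries.

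The differences between knockdowns come from edgeR's quasi-likelihood fit over all 13275 genes, as SUPV3L1 minus PNPT1 knockdown. In this fit no gene passed a Benjamini-Hochberg adjusted p of 0.05, 0% of those tested, and 543 genes (4.09%) had an unadjusted p under 0.05. DESeq2 called 18 genes (0.136%), and edgeR without its expression filter called 187 of 28015 (0.667%). Which members are among such calls is not read, since the same counts chose them. All 8 members passed the filter. Their median log2 fold change was 1.58, with 7 of 8 above 0, beside a median of 0.01 and 50.7% above 0 over all genes tested.

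Lysozyme mRNA was abundant in SUPV3L1 knockdown. LYZ stood at 1493 CPM in replicate 1, 344 in replicate 2 and 1331 in replicate 3 of that knockdown, and at 36.6, 180 and 144 CPM in replicates 1, 2 and 3 of PNPT1 knockdown. Every SUPV3L1 knockdown library thus lay above every PNPT1 knockdown library, a separation that 4.62% of all genes tested had in that direction and 3.94% in the other. It was the separated gene among the 8, and since these values chose the members nothing is read from that count. The lowest library, PNPT1 knockdown replicate 1, was below the other PNPT1 knockdown libraries by more than their difference from each other. The fitted log2 fold change of LYZ was 3.14 ± 0.70 (SE, n = 3 per group), and it was 2.70 to 3.55 with each library left out in turn. An antisense gene, AC020656.1, overlaps exons of LYZ, and it had 0 or 1 count in 5 libraries and 7 in SUPV3L1 knockdown replicate 3, against 368 to 18161 counts for LYZ. Without strand in the counting, whose setting is not named by the submitters' notes used here, reads of LYZ and AC020656.1 could not be told apart.

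The calprotectin mRNAs followed another pattern, high in SUPV3L1 knockdown replicates 1 and 3 and within or below the PNPT1 knockdown range in replicate 2. S100A8, the smaller calprotectin chain, was at 848, 21.1 and 127 CPM in SUPV3L1 knockdown replicates 1, 2 and 3, set against 48.4, 25.4 and 38.6 CPM in PNPT1 knockdown. S100A9, the larger chain, was at 921, 55.7 and 278 CPM in SUPV3L1 knockdown, set against 94.9, 60.2 and 51.4 CPM in PNPT1 knockdown. For both genes the groups overlapped: SUPV3L1 knockdown replicate 2 lay below every PNPT1 knockdown library for S100A8 and above 1 of them for S100A9. Log2 fold changes were 3.15 ± 1.01 (SE) for S100A8 and 2.60 ± 0.79 (SE) for S100A9, with 3 libraries a group. Without SUPV3L1 knockdown replicate 1 they were 0.97 and 1.26.

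S100A12 was close to a single-library transcript. It had 2227 counts in SUPV3L1 knockdown replicate 1, or 183 CPM, and 12 and 29 counts in replicates 2 and 3, or 1.13 and 3.14 CPM. In PNPT1 knockdown it had 29, 20 and 5 counts, or 2.89, 1.75 and 1.28 CPM. Its level in SUPV3L1 knockdown replicate 1 was 105-fold the median of the other 5 libraries, compared with 21.9-fold for S100A8, 15.3-fold for S100A9 and 8.29-fold for LYZ. The log2 fold change of S100A12 was 4.93 ± 1.56 (SE, n = 3 per group) with all libraries and 0.07 without that library.

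Proportions between the phagocyte transcripts were taken on the deposited FPKM values, which are scaled to gene length. Of 3 ratios, S100A9 to S100A12 was the one in which SUPV3L1 knockdown replicate 1 stood apart. The S100A9 to S100A8 ratio was 3.37, 4.18 and 2.37 in PNPT1 knockdown replicates 1, 2 and 3, and it was 1.86, 4.62 and 3.75 in SUPV3L1 knockdown. S100A9 thus exceeded S100A8 per length in every library, and by the least in SUPV3L1 knockdown replicate 1. The S100A9 to S100A12 ratio was 29.4 to 34.1 in PNPT1 knockdown, 46.9 and 79.4 in SUPV3L1 knockdown replicates 2 and 3, and 4.59 in replicate 1. The LYZ to S100A9 ratio ran from 0.125 in PNPT1 knockdown replicate 1 to 1.99 in SUPV3L1 knockdown replicate 2, and was 0.513 in SUPV3L1 knockdown replicate 1. The order of lysozyme and calprotectin was therefore not fixed across libraries.

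**Figure D2:**
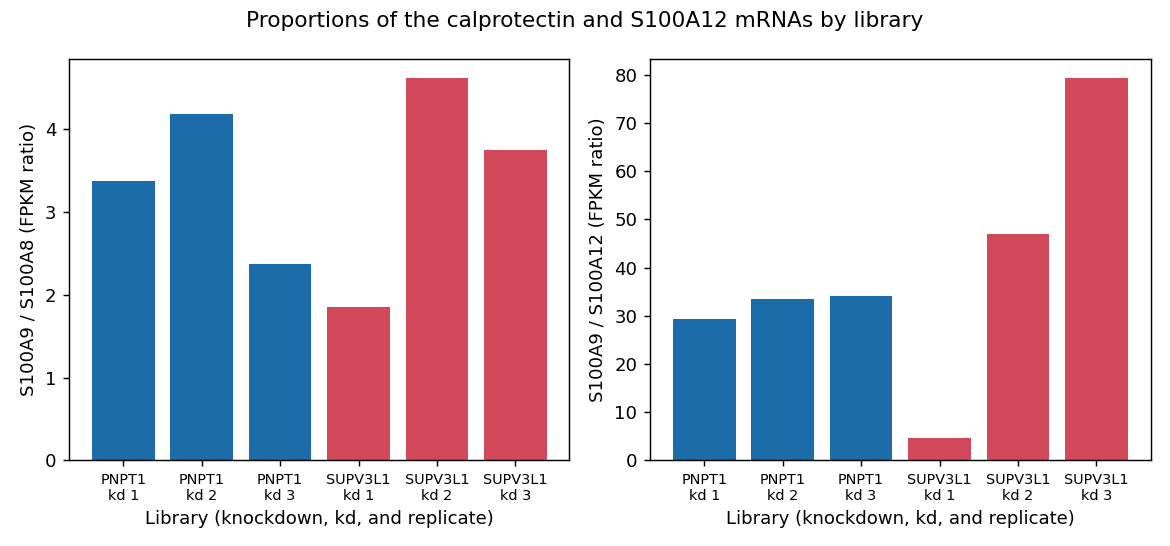
Ratio of S100A9 to S100A8 FPKM (left) and of S100A9 to S100A12 FPKM (right) in each library, PNPT1 knockdown in blue and SUPV3L1 knockdown in red, each bar 1 library. Both ratios are lowest in SUPV3L1 knockdown replicate 1, at 1.86 and 4.59.

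Among the broadly expressed members, S100A4, a partner of non-muscle myosin, and S100A6, a partner of the calcyclin-binding protein CACYBP, had overlapping groups. For S100A4, the PNPT1 knockdown libraries held 42.0, 18.2 and 28.1 CPM and the SUPV3L1 knockdown libraries 60.1, 14.8 and 55.3 CPM (log2 fold change 0.56 ± 0.51, SE). For S100A6 they held 23.1, 9.95 and 54.8 CPM and 68.8, 9.15 and 38.5 CPM, respectively (log2 fold change 0.43 ± 0.71, SE). Both genes were lowest in replicate 2 of either group. The log2 fold change of S100A6 was -0.29 without SUPV3L1 knockdown replicate 1 and 1.23 without PNPT1 knockdown replicate 3, so its direction rested on single libraries. BX470102.1, an antisense gene over exons of S100A6, had 1 count, in SUPV3L1 knockdown replicate 2.

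S100A10, which pairs with annexin A2 at the plasma membrane and does not bind calcium, was the member with the lower mean in SUPV3L1 knockdown. Its levels were 5.57, 3.84 and 42.0 CPM with PNPT1 knocked down and 14.1, 2.74 and 5.74 CPM with SUPV3L1 knocked down. The lower mean rested on the 42.0 CPM of PNPT1 knockdown replicate 3: the log2 fold change was -1.14 ± 0.88 (SE, 3 libraries a group) with that library and 0.67 without it. S100A11, a partner of annexin A1, varied least, by 2.51-fold between its lowest and highest library. Its levels were 49.1, 68.9 and 72.7 CPM with PNPT1 knocked down and 123, 58.8 and 87.9 CPM with SUPV3L1 knocked down. The log2 fold change was 0.50 ± 0.35 (SE, 3 libraries a group), and 0.20 without SUPV3L1 knockdown replicate 1. Genes named as pseudogenes of S100A11 are annotated. Reads that also matched a pseudogene could be among the alignments that were not unique, which were left out. Its counts are uncertain to that extent. By contrast LYZ and S100A8 varied 40.8-fold and 40.1-fold over the 6 libraries and S100A12 varied 162-fold.

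**Figure D3:**
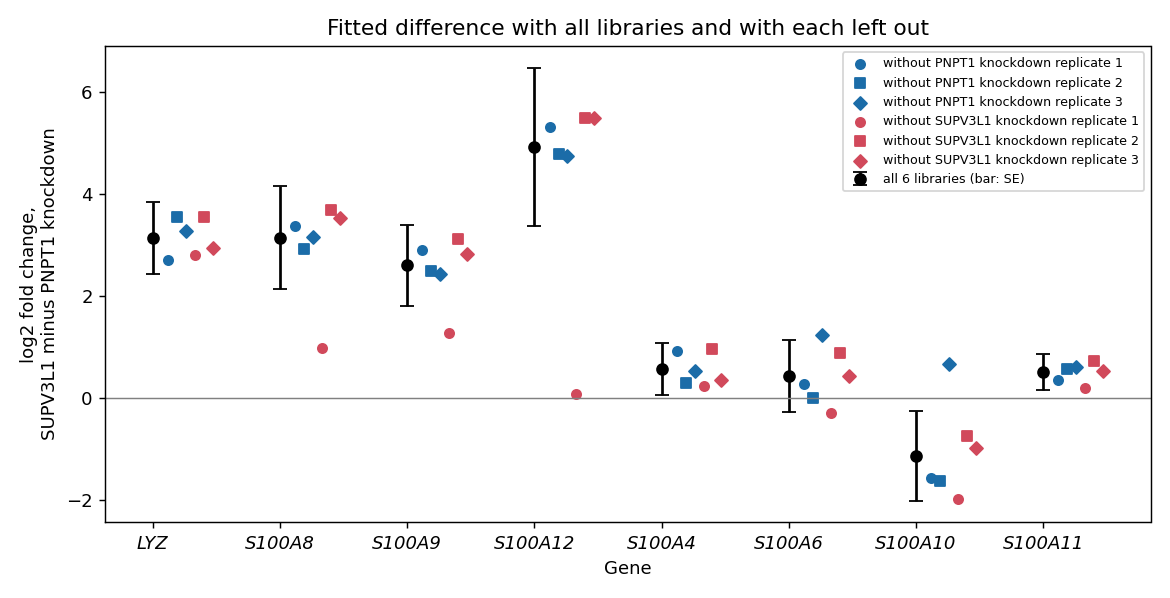
Fitted log2 fold change (SUPV3L1 minus PNPT1 knockdown) of each gene with all 6 libraries (black, bar: SE) and with each library left out in turn (coloured by the library left out). Without SUPV3L1 knockdown replicate 1, S100A12 falls to 0.07 and S100A8 to 0.97, while LYZ stays at 2.80; S100A10 is at 0.67 without PNPT1 knockdown replicate 3.

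Per gene length, S100A9 had the highest mean level of the 8 in both groups, but it was first in only 2 of the 6 libraries, replicate 1 of each knockdown. LYZ was first in 3 libraries, with 148 against 74.4 FPKM of S100A9 in SUPV3L1 knockdown replicate 2 and 569 against 350 FPKM in replicate 3. In PNPT1 knockdown replicate 2 LYZ and S100A9 were level, at 86.8 and 86.7 FPKM. The first place of S100A9 in SUPV3L1 knockdown thus rests on replicate 1, with 1236 FPKM against 634 FPKM of LYZ. In PNPT1 knockdown the order by mean FPKM was S100A9 (92.1 ± 52.5), S100A11 (67.3 ± 15.6), LYZ (48.3 ± 35.0), S100A8 (27.4 ± 14.1), S100A4 (22.1 ± 13.7), S100A6 (18.7 ± 9.53), S100A10 (5.90 ± 5.72) and S100A12 (2.95 ± 1.91; SD, n = 3). The ranges of all neighbours in this order overlapped. In SUPV3L1 knockdown the order was S100A9 (553 ± 607), LYZ (450 ± 264), S100A8 (258 ± 355), S100A11 (102 ± 39.6), S100A12 (91.7 ± 154), S100A4 (33.8 ± 19.0), S100A6 (30.8 ± 24.3) and S100A10 (3.66 ± 2.92; SD, n = 3). Here only S100A6 and S100A10, the last pair, had ranges apart, at 7.08 to 55.6 and 1.41 to 6.96 FPKM. The mean FPKM of 7 members over the 6 libraries lay above that of at least 95.8% of the genes tested, with S100A9 at 99.3% and LYZ at 99.2%, while S100A10 stood at 71.2%. The place of S100A12 among the 7 rests on SUPV3L1 knockdown replicate 1, with 269 FPKM against 1.25 to 5.01 FPKM in the other 5 libraries. As a check of the counts against the FPKM, the ratio of FPKM to counts per length was 0.935 to 1.10 times that of the median gene for the 8 members, within the 0.841 to 1.49 that hold the middle 90% of 9143 genes.

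Across the 6 libraries S100A8 and S100A9 ran together, with Pearson's r of log2 CPM of 0.978 (Spearman's rho 0.829), and S100A12 ran with S100A8 at r = 0.946 (rho 0.943). LYZ was less close to these 3, at r = 0.559 to 0.720, and closest to S100A11, at r = 0.859 (rho 0.771). S100A6 and S100A10 were at r = 0.818 (rho 0.943), and LYZ and S100A10 at r = 0.02. These values over 6 points describe the libraries, which share their scaling factors and the high level in SUPV3L1 knockdown replicate 1, and carry no p.

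The genes most alike in pattern were sought among 9729 others with a mean of at least 50 counts, again by Pearson's r of log2 CPM over the 6 libraries. The highest r among so many genes over 6 points is high by selection, so these values only describe the libraries. Closest to the mean of S100A8 and S100A9 were LRRK2 (r = 0.976), PADI4 (0.976), SIPA1L1 (0.971), ADGRG3 (0.970) and LPAR6 (0.967). All were highest in SUPV3L1 knockdown replicate 1, and their Spearman's rho ran from 0.657 (LRRK2) to 0.943 (SIPA1L1). PADI4 encodes the peptidylarginine deiminase of granulocytes that citrullinates histones, and it was at 41.0 and 8.99 CPM in SUPV3L1 knockdown replicates 1 and 3 and at 0.768 to 3.18 CPM in the other 4 libraries. LRRK2, a kinase of monocytes and neutrophils among other cells, was at 104 and 20.1 CPM in those 2 libraries and at 1.92 to 4.24 CPM elsewhere. Closest to LYZ were DLAT (r = 0.989) and PDHB (0.952), which encode pyruvate dehydrogenase complex subunits, with BCL2L1 (0.979), ABT1 (0.972) and ELK1 (0.963). Their range was far smaller than that of LYZ: DLAT ran from 37.7 to 70.6 CPM. Closest to the mean of the 4 broadly expressed S100 genes were TUBA4A (r = 0.995), NAMPT (0.985), MTIF2 (0.983), HEATR6 (0.982) and GBP2 (0.981). MTIF2 (19.3 to 29.9 CPM) and HEATR6 (20.6 to 29.4 CPM) varied less in proportion than any of the 4. NAMPT, the rate-limiting enzyme of NAD salvage, was highest at 347 CPM in SUPV3L1 knockdown replicate 1 and next at 199 CPM in PNPT1 knockdown replicate 3, the libraries in which S100A6 and S100A10 were also highest. On deposited FPKM the correlations were lower for the LYZ matches, at 0.741 (PDHB) to 0.855 (ABT1). They were 0.941 to 0.976 for the matches of S100A8 and S100A9. For the broadly expressed S100 genes they were 0.988 to 0.995 for TUBA4A, NAMPT and GBP2, 0.730 for MTIF2 and 0.635 for HEATR6.

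**Figure D4:**
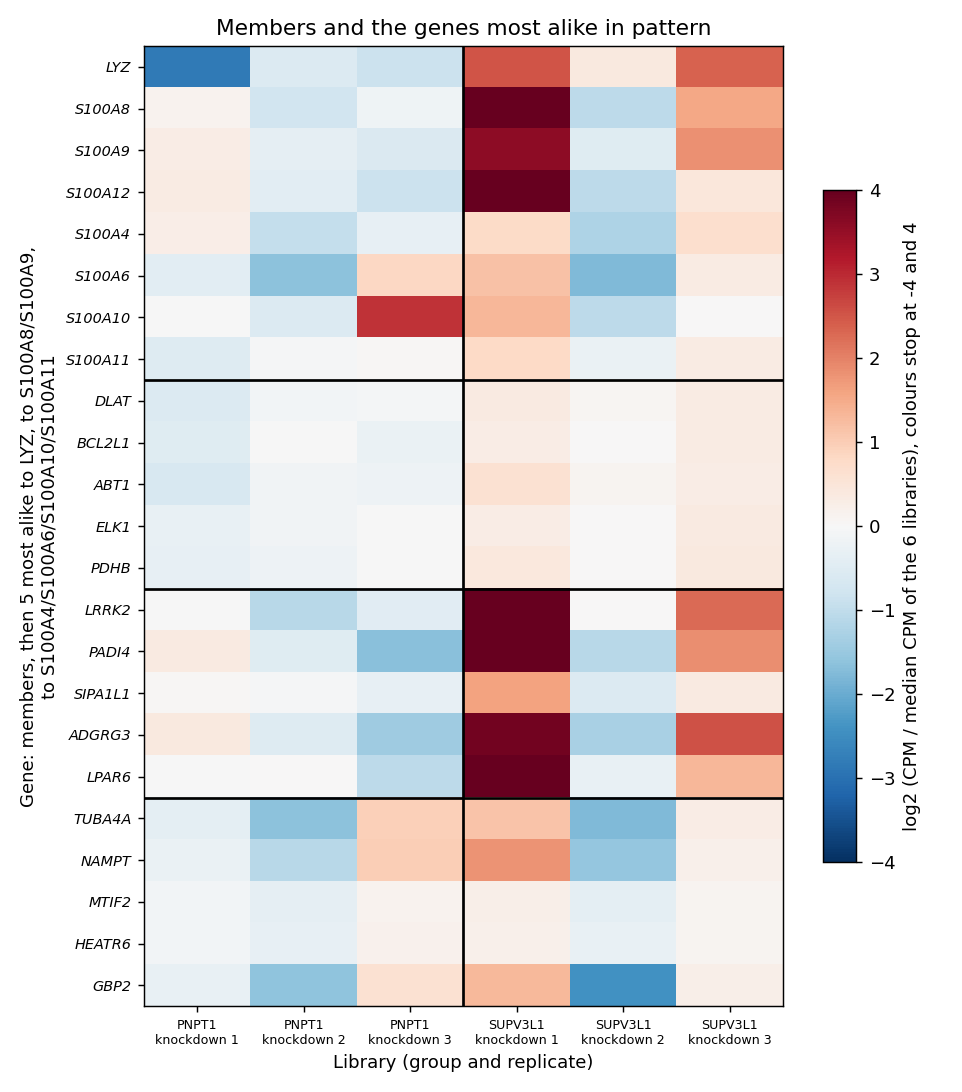
Level of the 8 members and of the 5 genes most alike to LYZ, to S100A8 and S100A9, and to the other 4 S100 genes, as log2 of CPM over the gene's median in the 6 libraries (colour, clipped at 4 log2 units on either side). The calprotectin block is reddest in SUPV3L1 knockdown replicate 1, and S100A10 in PNPT1 knockdown replicate 3.

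Most other genes of both protein families were low or without counts. Of 13 other S100 genes, 4 had no count in any library (S100A7, S100A7A, S100A14 and S100G) and 3 passed the filter: S100P, S100A16 and S100B. S100P, a calcium-binding protein known from placenta and epithelia, was highest in PNPT1 knockdown replicate 3, like S100A10 and like 30.6% of all genes tested. Its levels were 12.7, 27.9 and 90.3 CPM with PNPT1 knocked down and 23.8, 8.96 and 30.2 CPM with SUPV3L1 knocked down. S100A16 and S100B stayed under 5 CPM, at 0.0873 to 4.69 and 0.512 to 2.80 CPM, and both were highest in SUPV3L1 knockdown replicate 1. None passed edgeR's test, as no gene of the 13275 tested did, so this does not set them apart. The median log2 fold change of the 3 was 0.92. Of 9 other genes of the lysozyme families, 8 had no count and LYG1 had at most 24 counts in a library.

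Receptors and partners of S100 proteins came next. Of 7 receptor genes, 5 passed the filter and none passed the test, 3 lying above 0 (median log2 fold change 0.42). Those with the most counts were BSG (basigin, 75.9 to 206 CPM), CD33 (28.2 to 59.2 CPM), a sialic acid-binding receptor, and NPTN (neuroplastin, 20.6 to 44.8 CPM). Of 11 intracellular or surface partners, 9 passed the filter and none passed the test, 4 lying above 0 (median -0.08). No gene of the 13275 tested passed that test, so neither list is set apart by it. MYH9, the myosin heavy chain bound by S100A4, was at 253 to 514 CPM. AHNAK, the scaffold bound by S100A10 with annexin A2, was at 184 to 587 CPM. CACYBP was at 36.3 to 278 CPM, highest in PNPT1 knockdown replicate 3, like 30.6% of all genes tested. CPM is not scaled to length, so these values compare libraries and not genes.

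Other secreted proteins of phagocytes and the myeloid transcription factors gave the surrounding picture. Of 21 secretory genes, 14 passed the filter and none passed the test, 8 lying above 0 and 6 below (median log2 fold change 0.25). SUPV3L1 knockdown replicate 1 was the highest library for 6 of these 14, beside 11.8% of all genes tested. The list was chosen with earlier results of these data known. LGALS1 (galectin-1, 26.4 to 159 CPM) was highest in PNPT1 knockdown replicate 3, like 30.6% of all genes tested. CST3 (cystatin C, 32.7 to 91.4 CPM) was lowest in SUPV3L1 knockdown replicate 1, and GRN (progranulin, 36.8 to 96.1 CPM) was highest there. All 11 myeloid regulators passed the filter and none passed the test, 7 lying above 0 (median 0.15). As no gene of the 13275 tested passed, these outcomes say nothing particular about the secretory genes or the regulators. MYB, a factor of immature cells, was at 192 to 485 CPM, RUNX1 at 45.8 to 197 CPM and GFI1 at 59.4 to 118 CPM. MYB, RUNX1 and GFI1 were each highest in SUPV3L1 knockdown replicate 2, like 18.3% of all genes tested. SPI1 (82.4 CPM) and CEBPA (110 CPM) were also highest there. The regulators CEBPB, CEBPD, CEBPE, KLF4, IRF8 and STAT3 were highest in other libraries.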

How the data were processed

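Libraries of J2-bound RNA from OCI-AML2 cells were made with a strand-specific kit, per the labels' protocols. HTSeq, HISAT2 2.2.1, StringTie 2.1.4, SAMtools 1.14 and the build GRCh38 appear in the submitters' processing notes. The strand setting and the annotation used were not given in the sources used here. The deposited counts are whole reads per gene, and their 5 closing summary lines (84.0% to 92.9% of entries, mostly alignments that were not unique) were left out of library sizes and tests. The deposited FPKM values are the authors' own, scaled to gene length and library size. Their tool was not given in the sources used here.

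Counts were fitted with edgeR 4.0.16 (R 4.3.3, TMM scaling, filter with a minimum count of 10 and a total of 15) over all genes. The threshold was a Benjamini-Hochberg adjusted p of 0.05. P-values weigh the difference between the groups against the spread between these libraries only. Alternatives used DESeq2 1.42.0, limma 3.58.1 on log2(FPKM + 0.1) or log2(FPKM + 1), other scalings and filters, and each library left out. A standard error is the fold change over the square root of F. Log2 CPM used a prior count of 2.

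The members and gene lists were chosen with earlier results of these data known. Named genes are the members, the targeted genes, the 3 list members with the highest mean CPM and the 5 genes most alike in pattern. GENCODE 29 held 57055 of the 60675 identifiers.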

Additional observations from a re-analysis of the deposited data

How the results depend on the processing

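The median log2 fold change of the 8 members, 1.58 with all libraries, lay between 0.22 and 2.04 with each library left out, lowest without SUPV3L1 knockdown replicate 1. It was 0.41 without both PNPT1 knockdown replicate 3 and SUPV3L1 knockdown replicate 1, a setting chosen after seeing the data. In that setting S100A12 was at -0.13. Single-library settings gave S100A10 between -1.99 and 0.67 and S100A6 between -0.29 and 1.23. On FPKM, log2(FPKM + 0.1), S100A8 was at 1.98 and S100A12 at 2.26, and the median of all genes shifted to 0.17. Genes called numbered 18 by DESeq2 (13 higher, 5 lower), 187 without the expression filter, 0 to 1 with each library left out, and 0 under the other settings. No paired analysis was possible because the replicate numbers follow accession order. Precision is limited by 3 libraries per group and by the spread within them: S100A12 ran from 12 to 2227 counts in SUPV3L1 knockdown, and its lowest library held 5 counts.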

Other observations

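Among the genes of phagocyte secretion, 3 chosen after their values were seen were also highest in SUPV3L1 knockdown replicate 1. The list has 21 genes, of which 14 were tested, 8 above and 6 below a log2 fold change of 0. Of the 14, 6 were highest in that library, beside 11.8% of all genes tested. RETN is among the 14, while MMP9 and SERPINA1 are not. CFD (12.3 against 24.1 to 61.2 CPM elsewhere) and CST3 (32.7 against 40.3 to 91.4 CPM elsewhere) were lowest there. RETN, resistin, had levels of 39.4, 2.64 and 7.25 CPM in SUPV3L1 knockdown replicates 1, 2 and 3, beside 2.19 to 3.07 CPM with PNPT1 knocked down. MMP9, a gelatinase stored in neutrophil granules, had 269, 4 and 27 counts in SUPV3L1 knockdown and 0 to 10 counts in PNPT1 knockdown. It reached the level of the expression filter in too few libraries to pass. SERPINA1, alpha-1 antitrypsin, had 399, 5 and 254 counts in SUPV3L1 knockdown and 1 to 9 counts in PNPT1 knockdown, and it did not pass the filter either. TLR4, a receptor of released calprotectin and also chosen after its values were seen, had levels of 33.2, 8.02 and 15.2 CPM with SUPV3L1 knocked down and of 3.88, 9.52 and 1.28 CPM with PNPT1 knocked down.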
